A study of Homo sapiens with 8 samples.

Results

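Among the sites where ORCA was mapped in U2OS cells, 470 regions held a peak at early, mid and late G1, and these are described here. They were selected on the ORCA peak lists themselves: overlapping peaks (1 bp or more) of the 3 lists on chromosomes 1 to 22 were merged into regions, and a region was taken when it contained a peak of each list. Regions touching the first 7 Mb of chromosome 7 or chromosome 8 from 140 Mb on, where ORCA peaks are very dense, were left out. The 470 regions were 3.18% of the 14758 merged regions outside these ends, and of the others 1709 held peaks of 2 stages and 12579 of 1 stage. Because the peaks chose the regions, their ORCA widths, edges and scores are given as a description with no test. Methylated DNA did not enter the rule, and position along the chromosome entered it only through the dense ends left out.

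ORCA (LRWD1) carries WD repeats through which it binds the origin recognition complex (ORC). It helps to hold ORC on chromatin and is known at heterochromatin, where it also interacts with repressive histone marks. ORC is loaded in G1 and recruits the helicase that will start replication in S phase. U2OS is an osteosarcoma cell line that maintains its telomeres without telomerase. MeDIP pulls down DNA fragments carrying methylated cytosine, so its peaks lie where methylated CpGs are dense.

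The groups were U2OS cells at early G1, at mid G1 and at late G1 for ORCA chromatin immunoprecipitation from formaldehyde-fixed cells, and U2OS cells with no stated stage for MeDIP, each with 1 sample. The inputs of these samples were not analysed here, and how the cells were synchronized is not given in the sources used here. On chromosomes 1 to 22 the lists held 10640 early, 10306 mid, 1321 late and 73054 MeDIP peaks. Read depth is not given in the sources used here, and 1 sample per stage gives no spread between samples for a comparison of stages. The name of the deposited late list carries a caller label with another number than those of the early and mid lists, so stage and peak calling cannot be told apart in any comparison of widths, edges, scores or counts with late G1. Intervals in brackets are 95% intervals that cover counting error only, and neighbouring regions are not independent. Positions are in hg19, counted from 1. Genes and sequence at these positions were not analysed here, since the gene tables used here are on another assembly.

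The regions kept through G1 made up a small part of the early and mid lists and a large part of the late list. Outside the dense ends, they contained 571 of 8531 peaks called in early G1 (6.69%), 551 of 8275 called in mid G1 (6.66%) and 509 of 991 called in late G1 (51.4%). Most were simple: 356 of the 470 regions (75.7%) had exactly 1 peak of each stage. Several peaks of a stage were merged in 77 regions for early, 68 for mid and 31 for late, with at most 4 peaks of a stage. The regions had a median width of 1405.5 bp (quartiles 850.75 and 2453.25 bp), against 973 bp for regions of 2 stages and 515 bp for regions of 1 stage. In 458 regions the 3 stages had a stretch in common, and over all 470 its median length was 735 bp, or 62.6% of the region. In the other 12 the stages were linked in a chain, with no base shared by all 3.

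Every one of the 22 chromosomes carried at least 4 of these regions. Chromosome 1 held 45, chromosome 22 held 44, chromosome 17 held 36 and chromosome 2 held 32, while chromosome 13 held 4 and chromosome 3 held 8. Relative to the span covered by peaks, chromosome 22 was the densest with 12.5 regions per 10 Mb, followed by chromosome 21 with 5.17 and chromosome 17 with 4.44. Chromosome 3, with 0.405, and chromosome 13, with 0.417, were the sparsest. The number of kept regions followed the number of merged regions over the 22 chromosomes (Spearman 0.69, a description) and not the span (Spearman 0.0028).

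Kept regions were a larger share of the merged regions on some chromosomes than on others. The share was 7.91% on chromosome 21 (20 of 253, interval 5.18 to 11.9), 6.68% on chromosome 18 (29 of 434, interval 4.69 to 9.43) and 5.42% on chromosome 1 (45 of 830, interval 4.08 to 7.18). Their intervals lay above the 3.18% over all chromosomes. They count close neighbours singly: on chromosome 1, 8 of the 45 regions lay within 46.3 kb and 6 others within 23.5 kb. On chromosome 17 it was 2.24% (36 of 1605, interval 1.62 to 3.09) and on chromosome 12 it was 1.63% (10 of 615, interval 0.886 to 2.97). On the other 17 chromosomes the interval contained the overall share.

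**Figure D1:**
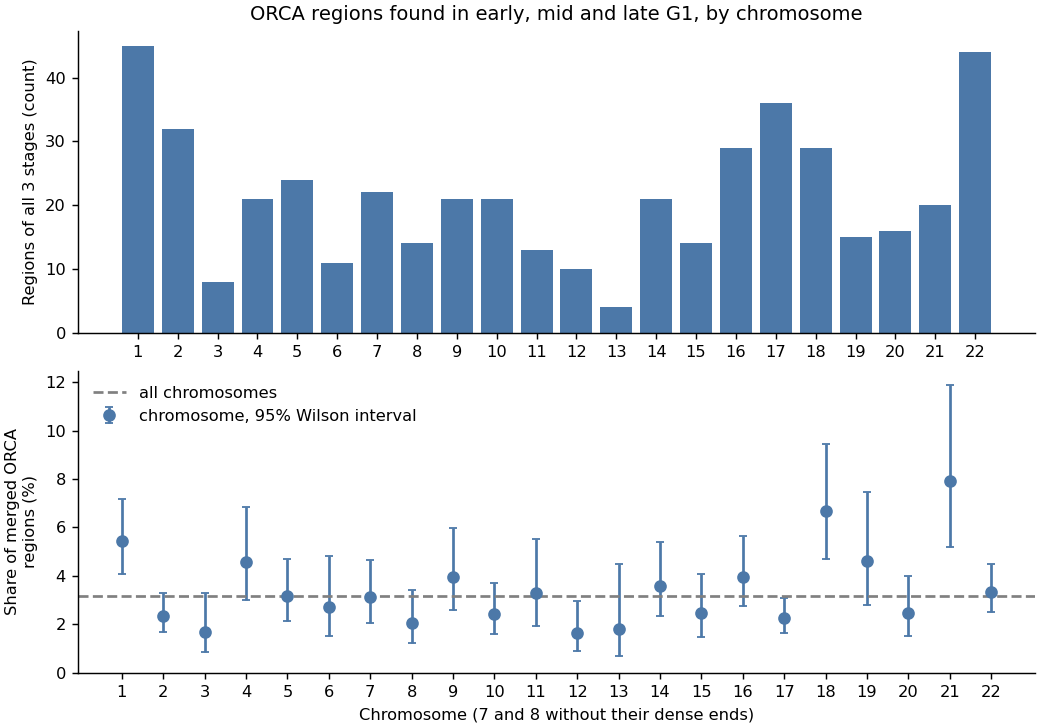
Number of ORCA regions found at all 3 stages per chromosome (bars, top) and their share of all merged ORCA regions on that chromosome with 95% Wilson intervals (points, bottom). Chromosomes 1, 22 and 17 held the most, and the share was highest on chromosome 21 at 7.91%.

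Within chromosomes the kept regions were unevenly spaced. The median gap between neighbours was 459 kb, with 74 of 448 gaps under 10 kb, 143 under 100 kb and 67 over 10 Mb. Gaps among all merged regions were shorter, with a median of 30.7 kb. Of 542 stretches of 5 Mb that held any ORCA region, 176 held a kept region, and in 91 of these there was 1. The first 5 in order of count held 62 of the 470 (13.2%). Chromosome 22 from 25 to 30 Mb held 16 kept regions, 12 with a MeDIP peak, and chromosome 18 from 10 to 15 Mb held 15, again 12 with a MeDIP peak. Chromosome 1 from 0 to 5 Mb held 11, of which 1 had a MeDIP peak. Chromosome 15 from 20 to 25 Mb held 10, of which 5 had a MeDIP peak. Chromosome 16 from 0 to 5 Mb also held 10, of which 1 had a MeDIP peak, and chromosome 22 from 15 to 20 Mb tied with these at 10, of which 7 had a MeDIP peak. Over all 470 kept regions, 51.3% had a MeDIP peak. These stretches are ordered by count, and some were rich in ORCA regions of any kind. Kept regions were 4.49% of the merged regions at 25 to 30 Mb of chromosome 22 and 3.98% on chromosome 16. Over all chromosomes the share was 3.18%. It was 6.45% at 15 to 20 Mb of chromosome 22, 7.69% on chromosome 18, 9.90% on chromosome 15 and 29.7% on chromosome 1. The last stretch of chromosome 7, from 155 Mb on, held fewer kept regions at a higher share: 9 of its 17 merged regions (52.9%) were kept at all stages. Of these 9, 5 lay side by side within 12.8 kb.

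Kept regions lay near the ends of the covered chromosome more often than other ORCA regions. An end is taken here as the outermost peak in any of the lists. Within 1 Mb of it there were 116 of 470 kept regions (24.7%, interval 21.0 to 28.8), against 7.06% of all merged regions. Among the 14288 other regions the share was 6.48%, a difference of 18.2 percentage points (Newcombe interval 14.5 to 22.3), and among regions of 2 stages it was 10.8%, a difference of 13.9 points (interval 9.86 to 18.2). Within 5 Mb the shares were 41.9% of the kept and 21.7% of all merged regions. Of the 116, 59 were at the beginning and 57 at the end. On chromosomes 13, 14, 15, 21 and 22 the first peak lay between 9.43 and 20.1 Mb, so that a beginning there is not a chromosome tip, and 31 of the 116 were at these beginnings. Without these beginnings, a count added after seeing the data, 85 of 470 kept regions (18.1%) and 748 of 14288 other regions (5.24%) were near an end.

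Score moved with position too. Among high-scoring regions the difference was present in the early and mid lists, and in the late list its interval included 0. In the best 10% of the early list by score, 73 of 272 kept regions (26.8%) and 37 of 355 other regions (10.4%) were within 1 Mb of an end, a difference of 16.4 points (interval 10.3 to 22.6). In the best 10% of the mid list the shares were 28.3% and 12.1%. In that of the late list they were 30 of 90 (33.3%) and 7 of 24 (29.2%), a difference of 4.17 points with an interval of -17.7 to 21.7. Kept regions near an end had a median early score of 173, a mid score of 267 and a late score of 122, and for those away from an end these were 141, 177 and 83.0. Their median widths were 1377.5 and 1436.5 bp.

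On each chromosome the kept region with the best mean rank by score is named next, to show what these sites look like. Of these 22 regions, 11 overlapped a MeDIP peak and 11 did not, and 11 lay within 1 Mb of an end. Mid was wider than early in 16 and late wider than early in 14 of them. The score is the caller's own value per peak, from 50 up to 3100 in each ORCA list, and 4 of the 22 had 3100 at all stages.

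Without a MeDIP peak, the region at chr1:236259834-236261098 had a score of 3100 at each stage and was 784 bp wide in early G1, then 1132 bp at mid and 1265 bp at late G1. The region at chr16:90060419-90063658, also with 3100 throughout, widened in the same order, from 2200 to 2976 and 3240 bp. At chr22:49779136-49782623, the widths were 2744, 3303 and 3488 bp, with scores of 1036, 3100 and 3100. At chr5:177239045-177241093, they were 1002, 1729 and 1807 bp. These 4 regions were narrowest in early G1. The regions at chr21:47233803-47236420, chr8:578961-581552, chr2:242838231-242839280, chr3:196420848-196422793, chr15:21312496-21318378 and chr14:107119449-107120585 were narrowest in early and widest in mid G1. On chromosome 14, for example, the widths were 701, 1137 and 959 bp and the scores 410, 1066 and 884. At chr11:65657688-65659827, the early peak was the widest of the 3, with 2140 bp against 1814 and 1887 bp.

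With a MeDIP peak, the region at chr6:107389730-107392322 had a score of 3100 at each stage, widths of 2507, 2448 and 2571 bp and 90.9% of its length under a MeDIP peak. The region at chr18:94277-98059, also with 3100 throughout, was 3783, 3488 and 3646 bp wide and 32.8% covered. At chr7:157939223-157942048, MeDIP covered 94.7%, and at chr13:113761143-113764753, it covered the whole region. Cover was partial elsewhere: 31.1% at chr9:141019964-141024015, 42.1% at chr10:134639237-134640708, 70.5% at chr12:132866642-132868808 and 11.6% at chr17:80172702-80176494. At chr20:26188478-26190737, it was 86.1%. The regions at chr4:190987781-191014511 and at chr19:37764315-37774400 were long, 26731 and 10086 bp, and carried 15 and 5 MeDIP peaks that covered 79.3% and 33.4% of them.

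Within the same regions, ORCA peaks were widest at mid G1 and about equally wide at early and late G1. Early extents had a median of 1012 bp, mid extents 1166.5 bp and late extents 997 bp. Mid had the widest extent in 236 of the 470 regions, early in 123 and late in 111, while late was the narrowest in 191 and early in 184. Region by region, the mid extent was 1.06 times the early extent at the median and wider in 303 regions. The late extent was 0.929 times the mid extent and narrower in 308. Late against early gave 0.995, with late wider in 225 regions, narrower in 242 and equal in 3.

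This was unlike the lists as wholes, where late peaks were the widest. Outside the dense ends the median peak width was 530 bp in the early, 565 bp in the mid and 831 bp in the late list. Peaks outside the kept regions had medians of 519, 554 and 726.5 bp, and peaks inside them 943, 1092 and 977 bp. Widths of the same region ranked alike between stages, with a Spearman correlation across the 470 regions of 0.85 for early and mid, 0.80 for mid and late and 0.81 for early and late. These points share the region itself, and the correlations are a description.

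**Figure D2:**
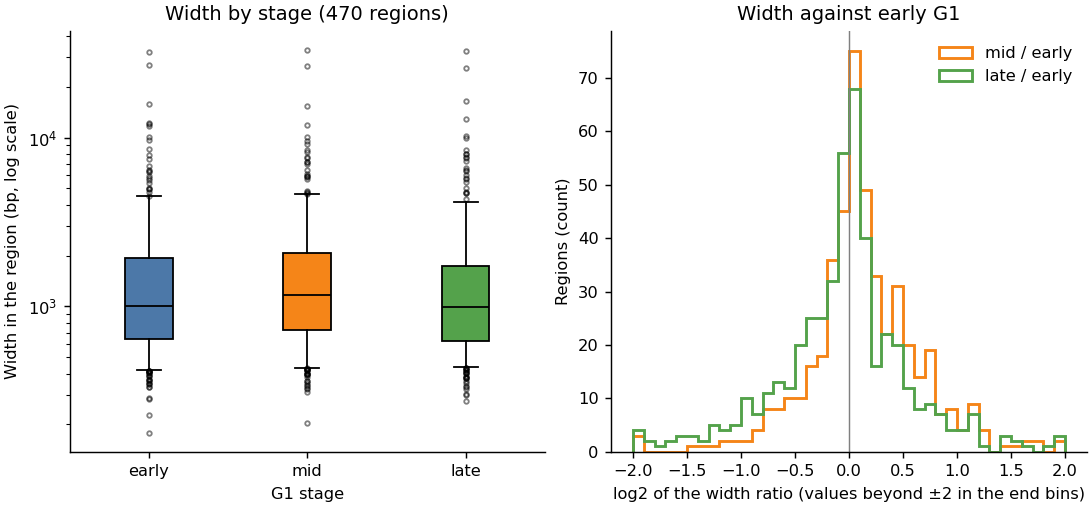
Left, width of each stage's extent in the 470 regions on a log scale (box, quartiles with median; whiskers, 5th and 95th percentiles; points, regions beyond them). Right, log2 of the mid and late width over the early width: late against early is centred near 0, and mid is shifted to larger widths.

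Large changes of width were few. The late extent was at least 2 times the early one in 22 regions and at most 0.5 times in 31, and the mid extent was at least 2 times the early one in 25 and at most 0.5 times in 10. Late against mid was at most 0.5 times in 49 regions. The widest kept regions changed little: at chr1:161409833-161442661, the early extent was 32210 bp, the mid extent 32829 bp and the late extent 32723 bp, and at chr4:190987781-191014511, they were 26720, 26627 and 25821 bp. The next was at chr1:2598497-2614970, with 15699, 15366 and 16474 bp. An exception was the fifth widest, at chr22:35737947-35750328, where early spanned 12122 bp, mid 9479 bp and late 2755 bp. The fourth, at chr21:9835709-9848560, went the other way, with 9688, 9160 and 12852 bp.

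About as many peak edges moved by under 100 bp between stages as moved by more. Over the 940 starts and ends, the median distance between early and late edges was 89 bp, between early and mid edges 91.5 bp and between mid and late edges 97 bp. Between early and late G1, 490 edges (52.1%) lay under 100 bp apart, and 66 (7.02%) lay over 1 kb apart. In 160 regions both edges were under 100 bp apart in early and late G1, and in 86, 32 of them with a MeDIP peak, every edge was under 100 bp apart between all stages. Over all 470 regions, 241 had a MeDIP peak, with a median width of 1848 bp against 1135 bp for those without. With 1 peak per stage (356 regions) the medians were 66, 78.5 and 74 bp. The midpoint moved by a median of 92.5 bp between early and late G1, or 9.17% of the early width. Joining peaks within 1 kb raised the median distance between early and late edges to 146.5 bp, and keeping the dense ends and chromosome X raised it to 156 bp.

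The direction of the edge movement was balanced between early and late and outward from early to mid. The median start moved by -26 bp and the median end by 26.5 bp from early to mid G1, which widened the region on both sides, and by 29.5 and -25 bp from mid to late G1. From early to late G1 the medians were -1 and 1.5 bp. The mid extent contained the early one in 197 regions (41.9%) and lay within it in 75 (16%). Going from mid to late these counts turned round: late contained mid in 74 regions (15.7%) and lay within it in 190 (40.4%). Late contained early in 131 regions (27.9%) and lay within it in 125 (26.6%). In the remaining 214 regions both edges moved the same way, 107 to higher and 107 to lower positions. Start and end movements from early to late G1 had a Spearman correlation of -0.055 across the 470 regions.

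**Figure D3:**
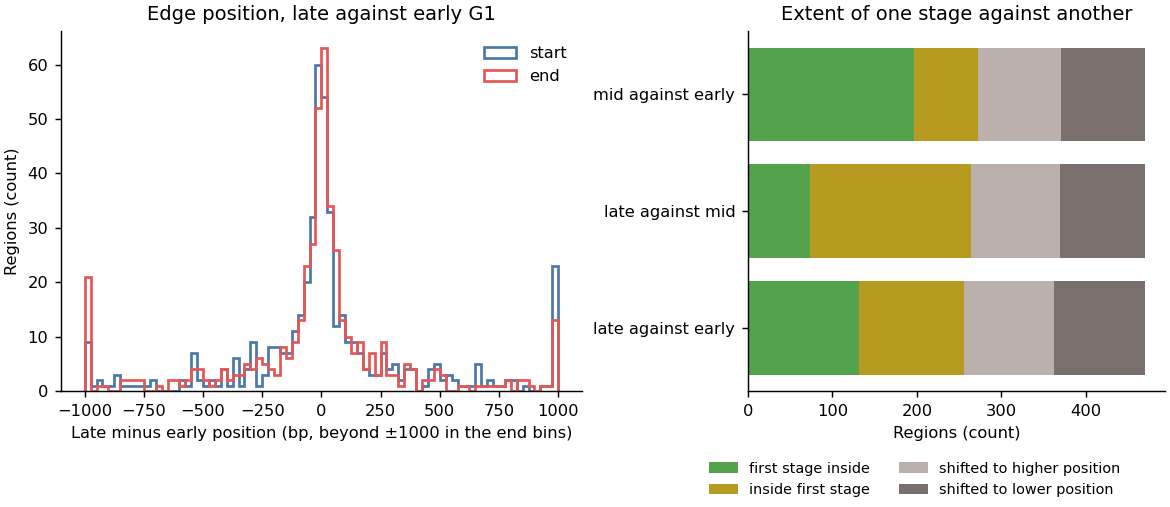
Left, late minus early position of the start and of the end in the 470 regions (bp, values beyond 1000 in the end bins); most edges lie close to 0. Right, number of regions in which the later-named extent contains the other, lies inside it or is shifted; mid contains early in 197 regions and late lies inside mid in 190.

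The 5 regions with the smallest summed distance between early and late edges, among those with 1 peak per stage, had these edges within a few bases. On chromosome 1 the early peak ran from 2626944 to 2627740 and the late peak from 2626945 to 2627741, a distance of 1 bp at both edges, while the mid peak began at 2626720 and ended at 2627752. On chromosome 19 the early peak ran from 48452760 to 48453840 and the late peak from the same start to 48453843. The other steady regions were at chr15:20305564-20307191, chr9:91986608-91987079 and chr17:45266321-45266815, with at most 5 bp at either edge. None of these 5 overlapped a MeDIP peak, and their scores were modest, between 52.7 and 221 over all stages.

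At the other extreme, 57 regions had an edge that differed by over 1 kb between early and late G1, and 43 of these had a MeDIP peak. Over all 470 kept regions the share with a MeDIP peak was 51.3%, and at 3000 bp or more it was 75% (60 of 80). The 57 regions were wide, with a median of 3643 bp. Late was narrower than early in 39 and wider in 18, and 23 had 1 peak per stage. The largest distance in the latter kind was on chromosome 22, where the early peak ran from 25317701 to 25320586, the mid peak from 25317641 to 25319045 and the late peak from 25320209 to 25321381. Mid and late there did not touch, and each overlapped a different side of the early peak. Also on chromosome 22, the peaks stepped upward from chr22:25722539-25723522 in early to chr22:25723419-25725078 in mid and chr22:25723885-25725199 in late G1. At chr2:91842401-91850357, early and mid were 4784 and 4828 bp wide and the late peak reached 1184 bp further at its start and 1989 bp further at its end. At chr17:21238787-21243435 the late peak was shifted to lower positions. At chr14:19107604-19111971 the late peak reached further than the early one on both sides.

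The kept regions were among the higher-scoring peaks of the early and mid lists and were spread over the late list. A region's rank is that of its best peak divided by the length of the list, in percent, so that small values are high scores. The median rank was 7.11% among early peaks, 6.65% among mid peaks and 34.4% among late peaks. These ranks come from lists of unequal length and show no change between stages. In early and in mid G1 272 of 470 regions were in the best 10% of the list, and 37 and 40 were in the lower-scoring 50%. In late G1, 90 were in the best 10% and 160 in the lower-scoring 50%. Of the peaks in the best 10% of each whole list by score, 655 early, 623 mid and 118 late peaks lay outside the dense ends. Kept regions held 45.3% of these early peaks, 46.7% of the mid and 79.7% of the late peaks. In the last 10%, again counting only peaks outside the dense ends, the shares were 0.644%, 1.08% and 27.9%. Of the 20 highest-scoring peaks outside the dense ends, 15 in the early list, 19 in the mid list and 19 in the late list were in kept regions.

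Among the 470 regions themselves, the order by score was similar but not the same between stages. Across regions the Spearman correlation was 0.64 for early and mid, 0.61 for mid and late and 0.51 for early and late. The regions share widths between stages, and score also went with width (Spearman 0.41 at both earlier stages and 0.34 at late G1). Of the 47 regions in the top 10% of each stage's order, 25 were in the top 10% of all 3 stages. From early to late G1, 97 of the 470 regions rose and 94 fell by 100 places or more, and the rest stayed within 100 places.

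**Figure D4:**
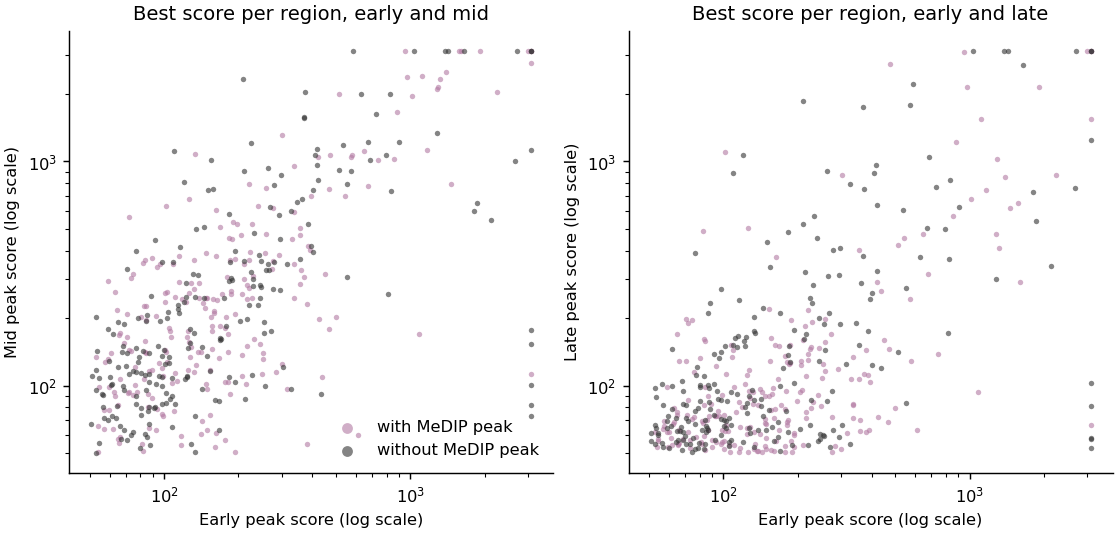
Best peak score of each of the 470 regions in early G1 (horizontal) and in mid or late G1 (vertical), on log axes, with and without a MeDIP peak. High scores at one stage mostly go with high scores at another, and 6 regions at the early maximum of 3100 have late scores under 110.

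The 3 regions that fell furthest in this order came from 1 place. A group of 6 kept regions at chr1:52838686-52862221 had an early score of 3100 in each. In mid G1 their scores were 73.5 to 177 and in late G1 they were 52.6 to 103. All 6 regions with an early score of 3100 and a late score under 110 were in this group. They were also narrow, with early widths of 485 to 887 bp, and 1 of the 6 overlapped a MeDIP peak. Whether these closely spaced narrow peaks fall on exons of a gene was not tested, so their early scores and falls in order are given only as values of the lists. The 3 largest falls were there, at chr1:52848900-52849786, chr1:52840927-52841417 and chr1:52850046-52850530. The rest of the group fell by 188.5 to 316.5 places, less than the region at chr5:14634043-14634895, which fell by 348. The largest rises were at chr8:6506150-6507202, with an early score of 76.7, a mid score of 400.04 and a late score of 392, and at chr8:1866959-1868423, with 82.6, 226 and 488. The next was at chr15:101094353-101095746, with 64.8, 81.9 and 170.

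Several kept regions stood side by side. Counting neighbours under 10 kb apart, 121 regions fell into 47 groups, 12 of them with 3 or more regions. The largest group had 8 regions in 46.3 kb at chr1:2583454-2629743, with early scores of 64.4 to 553, mid scores of 80.9 to 792 and late scores of 55.9 to 272, and none of the 8 overlapped a MeDIP peak. A group of 5 at chr7:158122562-158135399 had early scores of 98.1 to 630, mid scores of 355 to 1993 and late scores of 199 to 868, and 2 of the 5 overlapped a MeDIP peak. Another group of 5 lay within 7.02 kb at chr16:46724699-46731713. Its regions were 471 to 569 bp wide, with early scores of 814 to 3100, mid scores of 256 to 1130 and late scores of 172 to 1241, and none overlapped a MeDIP peak. Like the group at 52.8 Mb of chromosome 1, this was a run of narrow peaks with high early scores. Where the peaks of these runs lie relative to genes was not analysed here, and whether they fall on exons, which bears on what their scores measure, was not tested. All 4 regions of a group at chr17:59472794-59490694 overlapped a MeDIP peak. Taking 1 region per group, an alternative added after seeing the data, left the number, median widths, edge distances, MeDIP share and share near an end within the limits given with the sensitivity values.

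The regions kept through G1 coincided with methylated DNA more often than other ORCA regions as a whole, while the interval of their difference from regions of 2 stages included 0. Of the 470 kept regions, 241 overlapped a MeDIP peak (51.3%, interval 46.8 to 55.8), against 33.5% of all merged regions outside the dense ends. Among the 14288 other regions the share was 32.9%, a difference of 18.4 percentage points (Newcombe interval 13.8 to 23). Against the 47.7% of regions of 2 stages the difference was 3.59 points (interval -1.51 to 8.66). The share was 49.6% for regions of early and mid, 40% for early and late and 32.6% for mid and late G1. Regions of 1 stage stood at 20.6% for early, 42.2% for mid and 17.5% for late G1.

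Width moved with the MeDIP share. Kept regions with a MeDIP peak had a median width of 1848 bp and those without 1135 bp. The share went from 4 of 24 kept regions under 500 bp (16.7%, interval 6.68 to 35.9) to 60 of 80 of at least 3000 bp (75%, interval 64.5 to 83.2). In between it was 30.6% at 500 to 750 bp, 50% at 750 to 1000 bp, 41.1% at 1000 to 1500 bp, 51.5% at 1500 to 2000 bp and 67.1% at 2000 to 3000 bp. Regions of 2 stages, weighted to the widths of the kept regions, had a share of 53.2%, and regions of 1 stage, weighted alike, 36.2%. At 1000 to 1500 bp the shares were 41.1% of 95 kept regions, 50.9% of 434 regions of 2 stages and 38.5% of 616 regions of 1 stage. At 2000 to 3000 bp they were 67.1%, 63.2% and 30%.

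The MeDIP share did not follow the score in 1 direction. Among the 25% of the regions with the highest late scores 38.1% had a MeDIP peak (45 of 118, interval 29.9 to 47.1), against 58.1%, 53.0% and 55.9% in the following groups of 25% in falling order of score. The interval of the first group overlapped those of the third (44.0 to 61.8) and the last (46.9 to 64.6), and the difference was not tested. The first group had a median region width of 1544.5 bp, against 1247 bp in the group with the lowest late scores. By early score the shares were 50%, 58.1%, 51.7% and 45.3%, and by mid score 47.5%, 60.7%, 51.3% and 45.8%. Among regions in the best 10% of the mid list, 147 of 272 kept regions (54%) and 214 of 330 other regions (64.8%) had a MeDIP peak, a difference of -10.8 points (interval -18.5 to -2.93). In the best 10% of the early list the order was the opposite, 55.1% of 272 and 43.7% of 355, a difference of 11.5 points (interval 3.59 to 19.2). The highest-ranking regions with no MeDIP peak were those on chromosomes 1, 16, 8, 21 and 5 named above.

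**Figure D5:**
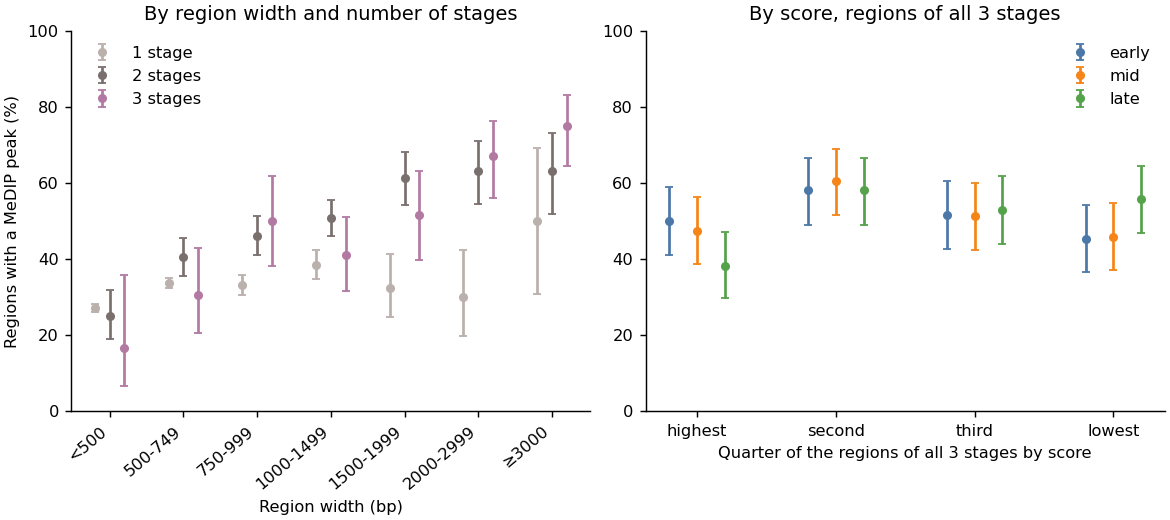
Share of regions with a MeDIP peak, with 95% Wilson intervals, by region width for regions of 1, 2 and 3 stages (left) and by score at each stage in 4 equal groups for the 470 regions of all stages (right). In regions of 3 stages the share is 16.7% in the narrowest and 75% in the widest class, with a dip at 1000 to 1500 bp, and by score it is lowest, at 38.1%, in the group with the highest late scores.

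Position and chromosome also went with methylation. Among ORCA regions outside the kept set, 57.8% of those within 1 Mb of a chromosome end and 31.1% of those further in had a MeDIP peak, a difference of 26.6 points (interval 23.3 to 29.9). Among kept regions the shares were 53.4% of 116 and 50.6% of 354, a difference of 2.88 points (interval -7.53 to 13.1). Away from the ends the kept regions stood 19.4 points above the other regions (interval 14.2 to 24.7), and near the ends the difference was -4.33 points (interval -13.9 to 5.06). By chromosome, the kept regions had the higher MeDIP share on 20 of 22. The exceptions were chromosome 16, with 5 of 29 (17.2%) against 46.7% of other regions, and chromosome 11, with 3 of 13 (23.1%) against 28.5%. Of the 29 on chromosome 16, 5 belonged to the group of narrow peaks there. Widths were not matched in these comparisons, and the median was 1405.5 bp for kept and 536 bp for other regions. Some chromosomes held few kept regions, such as chromosome 13 with 4.

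Where a MeDIP peak was present it usually covered most of the region. Of the 241 regions, 199 had 1 MeDIP peak and 42 had several, up to 15. The median cover was 78.2% of the region (quartiles 44.8% and 100%), with at least 50% covered in 177 regions and the whole region in 68. It was higher in regions of 2 stages with a MeDIP peak, 91.0%, and in all other regions with one, 100%. Regions of these classes were narrower, with median widths of 973 and 536 bp. In 219 of the 241 kept regions the MeDIP peak reached the stretch between the first and last base shared by all stages. The longest MeDIP cover was 29311 bp in the region at chr1:161409833-161442661, followed by 21192 bp at chr4:190987781-191014511. Next were 5575 bp at chr22:28191493-28198668, 5486 bp at chr22:25785233-25791998 and 5394 bp at chr5:34186808-34194781. Both chromosome 22 regions were wide in early and mid and narrow in late G1, with 6235, 7176 and 1733 bp in the one and 5755, 5922 and 1456 bp in the other. On chromosome 5 the extents were 7914, 7575 and 7974 bp.

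The MeDIP peaks at ORCA regions, the kept ones included, had high scores within their list. The best MeDIP score per region had a median of 1802, against 187 over all MeDIP peaks, and was at least 3100 in 94 regions. The median was 1407 over all other ORCA regions with a MeDIP peak, 1760 for regions of 2 stages and 1998.6 for regions of mid G1 alone, so that of the kept regions lay between the latter 2 classes. The 229 regions with no MeDIP peak had one nearby in many cases: the nearest lay at a median of 8335 bp (quartiles 1715 and 29621 bp), within 1 kb in 41 and within 10 kb in 127. It was over 100 kb away in 13.

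Regions with a MeDIP peak had larger edge distances and were also wider. Their median distance between early and late edges was 120.5 bp and their median width 1848 bp. For those without a MeDIP peak these were 71 and 1135 bp. Edge distances were not compared within width classes. Late was wider than early in 96 of 241 regions with a MeDIP peak (39.8%) and in 129 of 229 without (56.3%). By region width these were 25 of 55 and 56 of 95 under 1000 bp, 36 of 73 and 46 of 88 from 1000 to 2000 bp, and 35 of 113 and 27 of 46 from 2000 bp on. The differences, with minus without, had intervals of -29.1 to 2.96, -18.0 to 12.3 and -42.9 to -10.8 points. Below 2000 bp they thus included 0. These counts come from 1 library per stage and were not tested. The median late score was 82.2 with and 94.4 without a MeDIP peak, while the early medians were 156 and 134 and the mid medians 209 and 185.

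At the limit of the rule, the kept regions with the lowest scores were close to the minimum of the lists. The last by mean rank was at chr18:12657054-12657962, with scores of 53.7, 50.6 and 53.2. The next 4 were at chr22:25722539-25725199, chr5:82811694-82812117, chr16:2199631-2201353 and chr1:45284234-45284892, with scores of 50.2 to 67.6. Just inside the overlap rule were the 12 regions with no base shared by all stages, of which the first were at chr3:195473593-195475767 and at chr10:43247481-43249750 and chr10:43599481-43601687. Just outside it was a region of early and mid G1 at chr1:2614972-2616090, which missed the late peak beside it by 1 bp. The region at chr14:19613368-19615081 missed an early peak by 7 bp, and that at chr11:65272381-65273361 missed a mid peak by 12 bp. The number of kept regions depended on list length: taking from each list only as many top-scoring peaks as the late list has, it was 236, and with the higher-scoring 50% of each list 289.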

How the data were processed

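Peak lists of ORCA ChIP-seq at 3 stages of G1 and of MeDIP-seq, all from the U2OS line, were used, 1 sample per group (4 of 8 samples; the 4 inputs were not analysed here). Each deposited file is a list of peaks with start, end and a score per peak, called per sample. The scale of the deposited score is not stated. Ranks were taken within a list, and the mean rank averages the ranks in the 3 ORCA lists. Scores of different stages are also set side by side, and whether they share a scale is not known. Per the submitters' processing notes, Trimmomatic and Bowtie 0.12.7 were used with GRCh37 (hg19). The peak names begin with the name MACS. The caller label in the name of the late list has another number than those of the early and mid lists. The caller's full version, its settings and the read depth are not given in the sources used here. Position values (other than the score) are base pairs in the deposited lists.

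Peaks on chromosomes 1 to 22 were merged where they shared 1 bp or more. A region touching the first 7 Mb of chromosome 7 or chromosome 8 from 140 Mb was left out. The extent of a stage runs from its first start to its last end in the region. Shares have 95% Wilson intervals, differences Newcombe intervals; binomial order-statistic intervals of medians served only as limits for the alternatives. No test between stages was run. The code was tested on simulated lists. The members, lists and comparisons were chosen with earlier results of these data known. Named were, per chromosome, the region with the best mean rank; the 5 widest, 5 lowest in rank, 5 with the smallest and 5 with the largest distance between early and late edges (1 peak per stage); the 3 largest rises and falls in order; 3 regions on each side of the overlap rule; the 5 fullest 5 Mb stretches; the 5 with the longest MeDIP cover and the 5 best without MeDIP; the groups of neighbours and the chromosome 7 stretch were named after their values were seen. Planned descriptions of genes and sequence were not run. Python 3.11.15, numpy 2.4.6, pandas 2.3.3, scipy 1.17.1, statsmodels 0.14.6 and matplotlib 3.10.9 were used.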

Additional observations from a re-analysis of the deposited data

Results flagged for a closer look

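Regions of all 3 stages also occurred in parts of the data that the 470 regions leave out. The dense ends of chromosomes 7 and 8 held 206 of them, 112 on chromosome 7 and 94 on chromosome 8. These ends were left out because ORCA peaks are dense there, so the count is given as a value only. They were 8.19% of the 2514 merged regions there, had a median width of 2879 bp, and 176 of them (85.4%) overlapped a MeDIP peak. Their median extent was 2177.5 bp at early, 2449 bp at mid and 1487 bp at late G1, so that late was the narrowest stage, unlike in the 470 regions, where early and late were close. This difference was not tested.

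Chromosome X held 6 regions of all 3 stages, 2 of them with a MeDIP peak. The one from 88457636 to 88461157 had an early score of 145, a mid score of 1382 and a late score of 3100. The one from 108297162 to 108298055 had scores of 706, 1368 and 751. The other 4 had scores between 56.2 and 397.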

How the results depend on the processing

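Of 124 values recomputed under other choices, 85 stayed within the interval of the value reported (counts within 1.5 times, Spearman correlations within 0.1) and 39 moved. None moved with an overlap of 50% of the shorter peak, with regions assigned to the dense ends by midpoint, or with 1 region per group of neighbours. The number of regions was 289 with the higher-scoring 50% of each list and 236 at equal list length; with the latter the widths in early, mid and late G1 were 1174, 1505.5 and 1206.5 bp, and with the former mid was 1259 and late 1202 bp, late over early 1.02, and late contained early in 32.9%. Joining peaks within 1 kb gave widths of 1164 (early) and 1561 bp (mid), late over early 0.955, edge distances of 146.5 (early to late) and 133.5 bp (early to mid) and containment of 23.3%. Without the widest 5% of peaks, widths were 810, 879 and 820 bp, late over early 1.01, edge distances 66.5 and 79.5 bp and the MeDIP share 43.2%. With the dense ends and chromosome X, widths were 1226, 1443 and 1174.5 bp, late over early 0.957, edge distances 156 and 137.5 bp, containment 23.8% and the MeDIP share 61.4%. With 1 peak per stage, widths were 876.5, 936 and 855 bp and edge distances 66 and 78.5 bp. The MeDIP share was 42.98% with the higher-scoring 50% of the MeDIP list and 46.6% at the shared stretch. The share near an end was 41.9% within 5 Mb and 18.1% without beginnings that lie beyond 5 Mb. Late over early thus fell on either side of 1, while mid was the widest stage under each of these choices. The cause of these moves was not tested, apart from the fewer or narrower peaks that a choice leaves by construction. MeDIP shares within width classes are given with the results. Leaving out a replicate was not possible with 1 sample in each group, and depth is not given in the sources used here.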
